A study of Mus musculus with 20 samples.

Results

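The expression of 10 genes of peptide signalling was examined: Sst, Vip, Cck, Crh, Tac1, Tac2, Cort, Nts and Adcyap1, which encode neuropeptide precursors of the cerebral cortex and hippocampus, and Mc4r, which encodes a receptor for melanocortin peptides. They were taken by gene symbol, and each of the 10 was found among the 24421 genes counted in every library. The libraries were made from polyadenylated RNA of the neocortex and the hippocampus from mice 3 months old, and each of the 4 combinations of genotype and region has 5 libraries. In cTKO mice both alleles of App, Aplp1 and Aplp2 are floxed and Cre is driven by the Camk2a promoter, so that the genes are lost from excitatory neurons of the forebrain after birth, while interneurons and glia keep them. Controls, named wild type in the sample labels, carry the same floxed alleles of the 3 genes without Cre. Both genotypes are on a mixed C57BL/6J and 129 background and include both sexes. The RNA of the 2 regions was extracted with different kits, so region and kit cannot be told apart. Both regions came from 5 cTKO mice and 5 controls, but the labels do not say whether a number marks the same mouse in both regions.

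A neuropeptide is cut from a larger precursor, packed into dense core vesicles and released to act on G protein-coupled receptors. In the cortex and hippocampus Sst, Cort, Vip, Cck, Crh and the tachykinin genes are best known from GABAergic interneurons, and Sst and Vip each mark a major interneuron class. Cck is also made by many excitatory neurons, and Nts, Adcyap1 and Mc4r are found in restricted groups of excitatory cells. Camk2a-Cre is active in only part of the cells that express these genes.

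Total counts ranged from 12169474 to 25331954 per library, and the smallest level that could be seen, taken as 3 counts, was between 0.118 and 0.247 CPM (counts per 1000000 counts of the library). This limit covers counting error only. The 95% intervals given below come from the quasi-likelihood test and include the spread between libraries. App fell to 0.234 times the control level in the neocortex and to 0.292 times in the hippocampus (edgeR quasi-likelihood test with Benjamini-Hochberg adjustment, hereafter FDR; FDR = 1.31e-09 and 8.13e-09), Aplp1 to 0.264 and 0.262 times (FDR = 3.82e-08 and 3.79e-08) and Aplp2 to 0.329 and 0.421 times (FDR = 1.07e-07 and 3.31e-05), with no overlap between the genotypes. Camk2a, a marker of excitatory neurons, averaged 5887 CPM in neocortical controls and 7973 CPM in hippocampal ones. In cTKO mice it was lower in both regions, at 4702 CPM in the neocortex and 6898 CPM in the hippocampus. The genotypes overlapped in both, and neither difference passed an FDR of 0.05. Its part in the values of the members was not tested. Library 5 of cTKO neocortex and library 4 of cTKO hippocampus contained RNA of embryonic genes (summed level of a list of 7, 990.1 and 619.1 CPM, against 50.2 to 386.4 CPM in the other libraries), and their values are given with the rest and left out where stated. Igf2 had the highest mean of the 7 in every group, also in controls. The embryonic globin gene Hbb-y reached 304.1 and 191.0 CPM per kilobase of exon in cTKO neocortex and hippocampus. In controls it was at most 0.91 and 0.814. P values set a difference against the spread between these libraries.

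Sst and Cck stood far above the other members. Per kilobase of exon, Sst averaged 328.6 CPM in control neocortex and 318.9 CPM in control hippocampus, and Cck 203.1 and 196.7 CPM. Cort came next at 10.1 and 11.4 CPM per kilobase. In control neocortex it was followed by Vip (9.78), Tac2 (6.26), Tac1 (5.52), Crh (4.82), Adcyap1 (4.40), Nts (2.12) and Mc4r (0.816), all in CPM per kilobase. In that order the libraries did not overlap between Sst and Cck, Cck and Cort, Vip and Tac2, and Nts and Mc4r, and the other neighbours overlapped. In control hippocampus Nts followed Cort (7.42) and Mc4r followed Vip (4.004), with Vip at 4.66, Tac2 at 2.94, Tac1 at 2.25, Adcyap1 at 1.63 and Crh at 1.28 CPM per kilobase, and every gene from Vip downwards overlapped its neighbour. On the CPM scale Sst and Cck together made up 84.3% of the summed level of the 9 peptide genes in control neocortex, 85.7% in cTKO neocortex, 90.3% in control hippocampus and 90.9% in cTKO hippocampus.

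**Figure D1:**
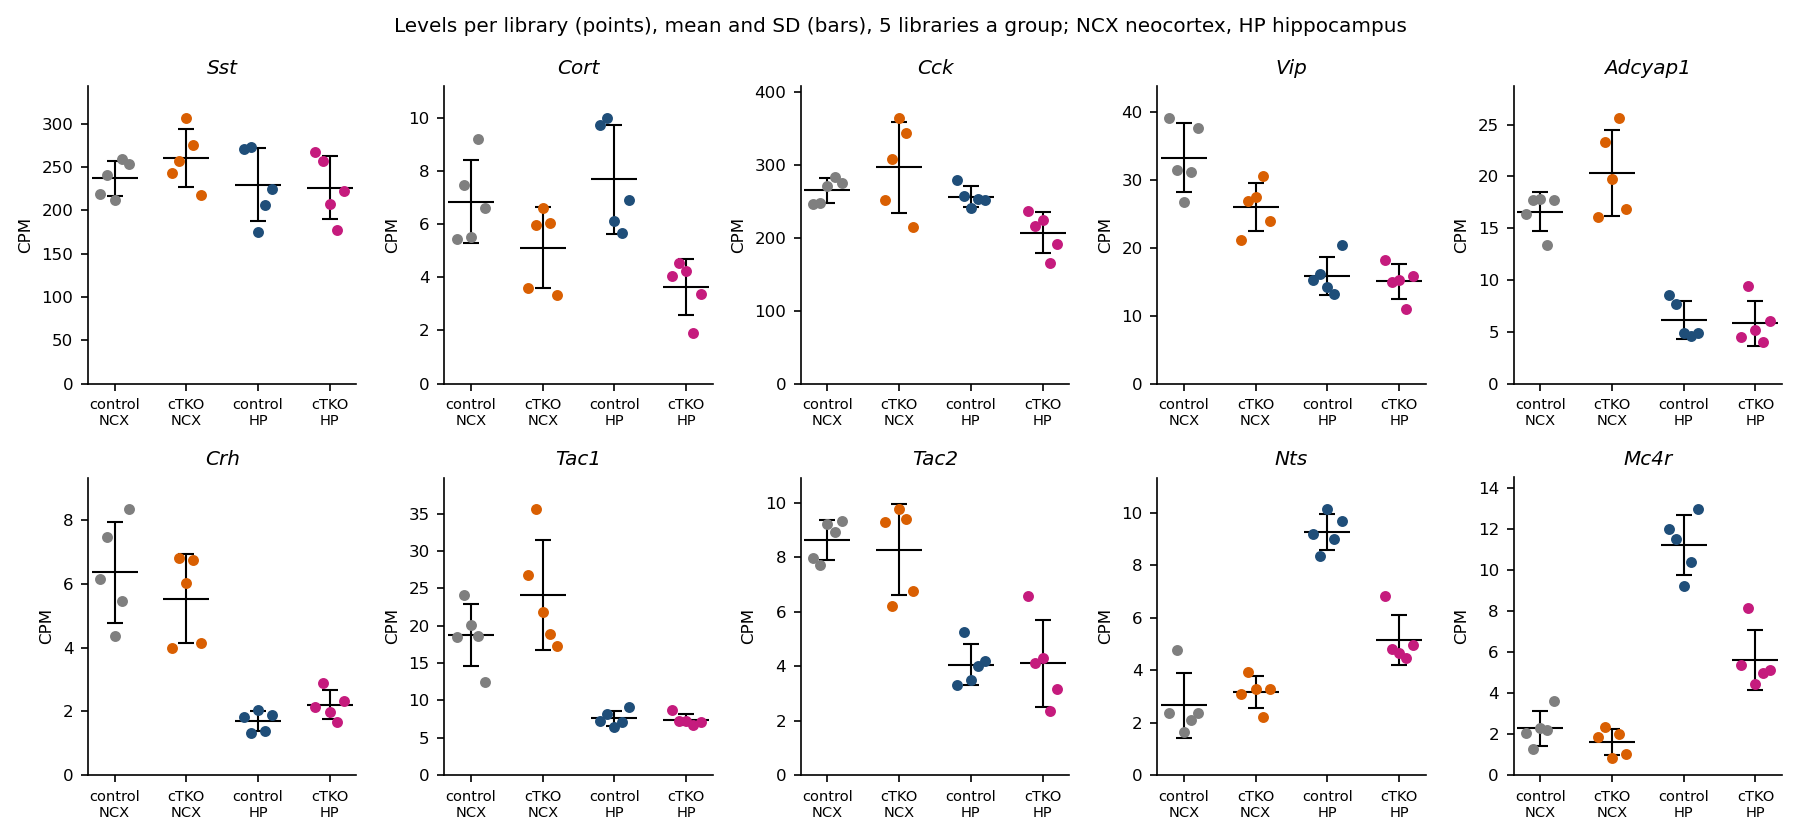
CPM of each of the 10 genes in each library (points, ordered by library number), with the mean and SD of the 5 libraries of a group, in control and cTKO neocortex (NCX) and hippocampus (HP); each panel has its own axis from 0. Nts and Mc4r are highest in control hippocampus, where their 5 libraries lie above all cTKO hippocampus libraries, and Vip, Crh, Tac1, Tac2 and Adcyap1 are higher in the neocortex.

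Genotype differences among the members were found in the hippocampus. There 2 of the 10 genes, Nts and Mc4r, fell in cTKO mice (FDR under 0.05), against 0.489% of all 13702 genes tested (0.175% lower). The libraries of the genotypes did not overlap for 4 members, Nts, Mc4r, Cort and Cck, all of them lower in cTKO, where 1.23% of all genes were lower without overlap. The same 4 had an unadjusted p under 0.05, which 12% of all genes had. In the neocortex 0 of 10 members passed an FDR of 0.05, against 0.188% of all genes, and 2 of them, Vip and Adcyap1, had an unadjusted p under 0.05, a threshold that 10.4% of all genes passed. The median log2 fold change of the members was 0.047 for the neocortex and -0.076 for the hippocampus, beside 0.0090 and 0.0049 over all genes tested. The members were chosen with earlier results of these data known. Their shares beside those of all genes therefore do not test whether peptide genes changed more often than others. Because whole tissue was used, fewer cells of a type and less RNA per cell cannot be told apart.

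**Figure D2:**
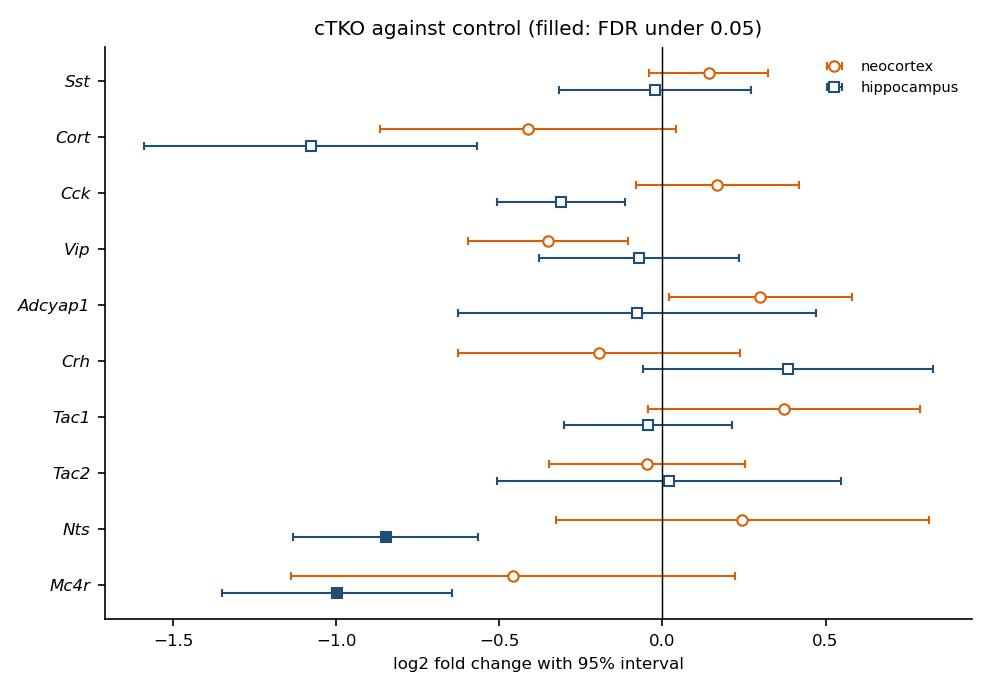
Log2 fold change of cTKO against control for the 10 genes in the neocortex (circles) and the hippocampus (squares) with 95% intervals; filled symbols have an FDR under 0.05. Only Nts and Mc4r in the hippocampus are filled, at -0.85 and -0.998, and Cort in the hippocampus lies at -1.08 with a wider interval.

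Nts encodes the precursor of neurotensin and neuromedin N, and lies on chromosome 10 from 102481756 to 102490486 on the minus strand (GRCm38). The 250 bases before its RefSeq start (GRCm38.p6, chr10:102490419-102490668, minus strand, read 5′ to 3′) are shown because Nts is one of the genes that changed, with CGTCA, the complement of TGACG, in capitals.
Nts: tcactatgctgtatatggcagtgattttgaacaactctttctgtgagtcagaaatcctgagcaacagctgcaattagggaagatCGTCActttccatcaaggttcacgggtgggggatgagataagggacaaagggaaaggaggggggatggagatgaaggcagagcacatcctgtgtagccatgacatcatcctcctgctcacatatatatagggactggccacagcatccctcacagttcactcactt
The gene position above is from GENCODE M21, and by it the RefSeq start lies inside the gene. The capitals begin 166 bases before the RefSeq start. TGANTCA, the AP-1 motif, begins at 207, and 6.75% of all 32851 windows of this length hold it on either strand. In control hippocampus the level of Nts was 9.19, 8.33, 10.1, 8.98 and 9.67 CPM in the 5 libraries, and in cTKO hippocampus 6.81, 4.82, 4.66, 4.45 and 4.96 CPM. The lowest control library was thus above the highest cTKO library, which itself stood apart from the other 4. Nts fell by 0.85 on the log2 scale (SE 0.13, 95% interval -1.13 to -0.56, 0.556 times the control level, FDR = 0.0143), the 22nd smallest p of the genes tested, and the exact permutation test gave the smallest two-sided p that 5 libraries against 5 allow (p = 0.00794). The call was kept without the library with embryonic genes, and the FDR rose to 0.0503 without control library 1 and to 0.0620 without control library 4. In the neocortex Nts was low, with 2.38, 4.78, 1.65, 2.09 and 2.36 CPM in controls and 3.07, 3.92, 3.27, 2.23 and 3.26 CPM in cTKO libraries. One control library was the highest of the 10, the genotypes overlapped, and the log2 fold change was 0.25 (SE 0.27, 95% interval -0.33 to 0.82, FDR = 0.810).

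The difference of the Nts response between the regions was -1.08 on the log2 scale (SE 0.29, 95% interval -1.69 to -0.47, unadjusted p = 0.00134) and did not pass correction over 14192 genes (FDR = 0.476). Without library 2 of control neocortex, at 4.78 CPM, it was -1.41 with an FDR of 0.0110. That was the only call among 20 fits that left out 1 library, where the FDR ran from 0.0110 to 0.941. In 8 other alternative fits the FDR was 0.0963 to 0.652. No other member had an interaction with an FDR under 0.05 in any fit that left out 1 library. Over all genes 0.0564% passed this test, and 2 members, Nts and Cck, were among the 3.75% with an unadjusted p under 0.05.

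The neurotensin receptors were measured as well. Ntsr1, the G protein-coupled receptor with high affinity for neurotensin, was at 7.03, 4.59, 4.04, 4.09 and 4.97 CPM in control hippocampus and at 2.83, 2.93, 2.23, 2.20 and 4.19 CPM in cTKO hippocampus. One cTKO library lay within the control range, and the log2 fold change was -0.78 (SE 0.22, unadjusted p = 0.00334, FDR = 0.163). In the neocortex Ntsr1 was at 14.5 ± 2.07 CPM (SD, n = 5) in control libraries and 16.7 ± 3.02 CPM (SD, n = 5) in cTKO libraries, with a log2 fold change of 0.22 (FDR = 0.599). The difference between the regions was -0.99 (unadjusted p = 0.000715, FDR = 0.350). Ntsr2, a lower-affinity receptor found in astrocytes, was at 120.3 ± 10.1 and 123.0 ± 28.6 CPM (SD, n = 5 each) in control and cTKO hippocampus (log2 fold change 0.033, 95% interval -0.28 to 0.35, FDR = 0.966). Sort1, which encodes the sorting receptor sortilin, differed by -0.18 in the neocortex (FDR = 0.241), where its libraries did not overlap, and by -0.089 in the hippocampus (FDR = 0.689).

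Mc4r encodes the melanocortin 4 receptor, best known from hypothalamic control of feeding, and lies on chromosome 18 from 66857704 to 66860506 on the minus strand (GRCm38). It was at 12.01, 11.5, 9.22, 10.4 and 13.0 CPM in control hippocampus and at 5.37, 8.15, 4.46, 4.97 and 5.13 CPM in cTKO hippocampus. All 5 control libraries lay above all 5 cTKO libraries, of which the second was the nearest to the controls. Mc4r fell by 0.998 on the log2 scale (SE 0.16, 95% interval -1.35 to -0.65, 0.501 times the control level, FDR = 0.0186; exact permutation p = 0.00794). The FDR rose above 0.05 in 4 of the 10 fits that left out 1 library, to 0.0611, 0.0700, 0.0675 and 0.0522 without control libraries 1, 2, 4 and 5, with log2 fold changes from -1.17 to -0.92 over the 10 fits. In the neocortex Mc4r was at 2.05, 1.25, 2.30, 2.22 and 3.61 CPM in controls and at 1.85, 2.35, 0.818, 2.01 and 1.04 CPM in cTKO libraries. These overlapped, and the log2 fold change was -0.46 with a wide interval (SE 0.32, 95% interval -1.14 to 0.22, FDR = 0.667). The difference between the regions was -0.54 (95% interval -1.28 to 0.20, unadjusted p = 0.141).

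Mc4r is activated by peptides cut from Pomc and blocked by Agrp. Pomc was between 0.316 and 1.74 CPM over all 20 libraries and was not among the genes tested, and Agrp was at or below 0.208 CPM. Mrap2, an accessory protein of melanocortin receptors, was at 3.79 ± 1.02 CPM (SD, n = 5) in control hippocampus and 2.54 ± 0.706 CPM (SD, n = 5) in cTKO hippocampus, a log2 fold change of -0.58 that overlapped and did not pass the test (unadjusted p = 0.0253, FDR = 0.343). In the neocortex its log2 fold change was 0.27 (FDR = 0.600). Since Mc4r and Nts are abundant in the hypothalamus, the summed level of 7 hypothalamic genes was examined: it was 0.428 to 1.09 CPM in control hippocampus and 0.254 to 3.44 CPM in cTKO hippocampus, with medians of 0.687 and 1.40 CPM. Its part in the values of Nts and Mc4r was not tested.

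**Figure D3:**
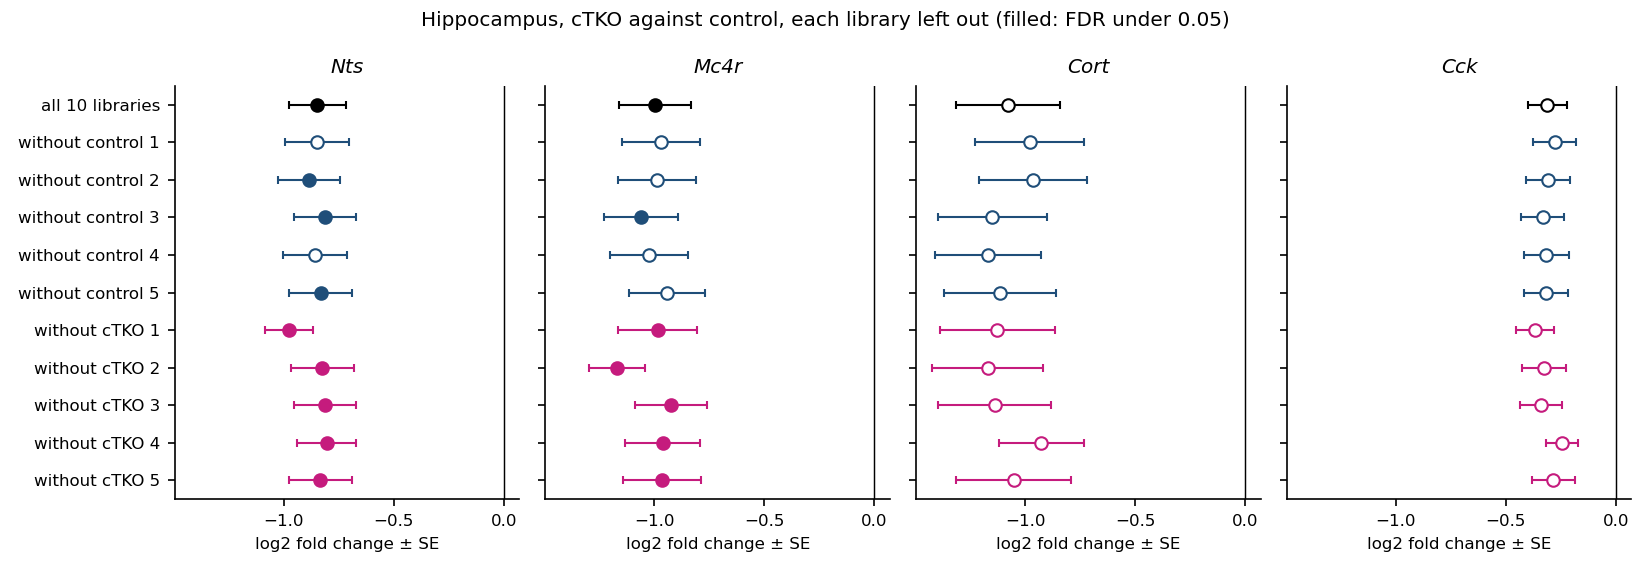
Log2 fold change of cTKO against control in the hippocampus with its SE for Nts, Mc4r, Cort and Cck, with all 10 libraries and with each library left out; filled points have an FDR under 0.05. All points lie below 0, and those of Cort and Cck are open in every fit.

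Sst and Cort encode related precursors: somatostatin and cortistatin share most of their mature sequence and bind the same receptors. Sst lies on chromosome 16 from 23889573 to 23890958 and Cort on chromosome 4 from 149125034 to 149126763, both on the minus strand (GRCm38). The 100 bases before the start of each gene, as RefSeq gives it on GRCm38.p6, are shown with those of Cck because the 3 genes varied together between libraries and because cyclic AMP response elements are well known in such promoters. Capitals mark TGACG on either strand (CGTCA on the other), including the full palindrome TGACGTCA. The Sst window is chr16:23890845-23890944, that of Cort chr4:149126764-149126863 and that of Cck chr9:121495695-121495794, all on the minus strand and read 5′ to 3′.
Sst: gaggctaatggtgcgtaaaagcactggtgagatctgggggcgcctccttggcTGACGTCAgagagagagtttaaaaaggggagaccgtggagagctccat
Cort: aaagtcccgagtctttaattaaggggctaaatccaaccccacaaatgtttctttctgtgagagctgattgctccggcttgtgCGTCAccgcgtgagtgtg
Cck: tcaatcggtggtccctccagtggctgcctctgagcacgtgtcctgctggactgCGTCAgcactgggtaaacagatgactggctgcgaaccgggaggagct
The full element in Sst begins 48 bases before the RefSeq start, and the shorter motif begins 18 bases before that start in Cort and 47 in Cck. The gene positions above are from GENCODE M21, and by them the Sst window lies inside the gene. Among the 8 members with a window of 250 bases, 1 held TGACGTCA and 7, all but Tac2, held TGACG, beside 1.55% and 17.8% of all 32851 windows, where the count of TGACG includes the full element. These are matches of letters, and no binding was measured.

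Sst was at 271.2, 272.9, 174.8, 206.0 and 224.7 CPM in control hippocampus and at 267.0, 257.1, 207.5, 177.9 and 222.7 CPM in cTKO hippocampus. The genotypes covered nearly the same range (log2 fold change -0.022, 95% interval -0.32 to 0.27, FDR = 0.978). In the neocortex the levels were 236.9 ± 20.5 CPM for controls and 260.2 ± 33.6 CPM for cTKO mice (SD, n = 5 each) (log2 fold change 0.14, 95% interval -0.042 to 0.32, FDR = 0.608). Sst thus showed no genotype difference past the threshold in either region.

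Cort gave other values. In control hippocampus it was at 9.75, 10, 6.13, 5.66 and 6.90 CPM and in cTKO hippocampus at 4.06, 4.55, 4.25, 1.91 and 3.39 CPM. All cTKO libraries lay below all control libraries, and the controls themselves covered a wide range. The log2 fold change was -1.08, the largest fall of the 10 members (SE 0.24, 95% interval -1.59 to -0.57, 0.474 times the control level), with an unadjusted p of 0.000556 and an FDR of 0.0757; the exact permutation test gave p = 0.00794. In the neocortex it was -0.41 (SE 0.21, 95% interval -0.87 to 0.042, FDR = 0.526), from 6.85 ± 1.55 to 5.11 ± 1.52 CPM (SD, n = 5 each). The library with embryonic genes had the lowest Cort level of the 10 hippocampal libraries, 1.91 CPM, and without it the log2 fold change was -0.93.

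Of the somatostatin receptors, Sstr2 was at 12.5, 12.2, 7.85, 10.1 and 8.47 CPM in control hippocampus and at 24.2, 19.7, 45.1, 15.5 and 13.7 CPM in cTKO hippocampus. All cTKO libraries were above the controls, from 13.7 to 45.1 CPM, and the log2 fold change of 1.21 did not pass the test (SE 0.29, FDR = 0.0993). Sstr4 differed by -0.29 there (FDR = 0.332), and neither Sstr1 nor Sstr3 had an unadjusted p under 0.05 in either region.

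Cck encodes cholecystokinin and lies on chromosome 9 from 121489824 to 121495694 on the minus strand (GRCm38). Its level was 279.5, 257.1, 241.0, 253.3 and 252.6 CPM in control hippocampus and 237.1, 216.1, 224.1, 165.7 and 192.1 CPM in cTKO hippocampus. The ranges did not overlap, by a gap that was small beside the spread of the cTKO libraries. The log2 fold change was -0.31 (SE 0.090, 95% interval -0.51 to -0.11, unadjusted p = 0.00463, FDR = 0.184; exact permutation p = 0.00794). In the neocortex Cck was at 265.1 ± 16.9 CPM for controls and 296.6 ± 62.7 CPM for cTKO mice (SD, n = 5 each) (log2 fold change 0.17, FDR = 0.667). The difference between the regions was -0.47 (SE 0.16, unadjusted p = 0.00805, FDR = 0.840). Cckbr, the main brain receptor for cholecystokinin, was at 92.8 ± 3.52 and 111.2 ± 20.1 CPM (SD, n = 5 each) in control and cTKO neocortex (log2 fold change 0.27, FDR = 0.341) and at 7.62 ± 1.36 and 7.64 ± 2.40 CPM (SD, n = 5 each) in the hippocampus (FDR = 0.995).

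Vip encodes vasoactive intestinal peptide, the peptide of a class of interneurons that mainly inhibit other interneurons, and lies on chromosome 10 from 5639218 to 5647617 on the plus strand (GRCm38). In control neocortex it was at 39.2, 31.5, 26.8, 31.2 and 37.7 CPM and in cTKO neocortex at 21.2, 26.9, 27.4, 30.6 and 23.9 CPM. Most cTKO libraries were in or below the lower part of the control range. The log2 fold change was -0.35 (SE 0.11, 95% interval -0.60 to -0.10, unadjusted p = 0.00862, FDR = 0.294; exact permutation p = 0.0397). In the hippocampus it was -0.072 (95% interval -0.38 to 0.23, FDR = 0.903), at 15.9 ± 2.75 and 15.1 ± 2.62 CPM (SD, n = 5 each).

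Adcyap1 encodes PACAP, a peptide of the same family as VIP, and lies on chromosome 17 from 93199017 to 93206537 on the plus strand (GRCm38). In the neocortex its level was 16.4, 17.7, 17.9, 13.4 and 17.7 CPM in controls and 16.1, 23.4, 19.8, 25.7 and 16.8 CPM in cTKO mice. Of the 5 cTKO libraries, 3 were above all controls and 2 were among them. The log2 fold change was 0.30 (SE 0.13, 95% interval 0.020 to 0.58, unadjusted p = 0.0373, FDR = 0.438; exact permutation p = 0.119). In the hippocampus it was at 6.14 ± 1.87 and 5.81 ± 2.16 CPM (SD, n = 5 each), with a log2 fold change of -0.079 (FDR = 0.951). Adcyap1r1, the PACAP-preferring receptor, was at 235.9 ± 18.7 CPM (SD, n = 5) in control and 191.6 ± 24.1 CPM (SD, n = 5) in cTKO hippocampus (log2 fold change -0.30, SE 0.090, unadjusted p = 0.00567, FDR = 0.201), and differed by 0.10 in the neocortex (FDR = 0.672).

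Crh encodes corticotropin-releasing hormone, a stress peptide that cortical and hippocampal interneurons also make, and lies on chromosome 3 from 19693401 to 19695396 on the minus strand (GRCm38). Its level was 6.36 ± 1.58 CPM (SD, n = 5) in control and 5.54 ± 1.39 CPM (SD, n = 5) in cTKO neocortex (log2 fold change -0.19, 95% interval -0.63 to 0.24, FDR = 0.796). Control hippocampus had 1.81, 1.33, 2.04, 1.38 and 1.88 CPM and cTKO hippocampus 2.13, 2.89, 1.98, 1.67 and 2.33 CPM. These overlapped (log2 fold change 0.38, SE 0.21, 95% interval -0.060 to 0.83, FDR = 0.497; exact permutation p = 0.0794).

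Crhbp, the secreted protein that binds and sequesters corticotropin-releasing hormone, rose in cTKO neocortex. It was at 23.8, 22.3, 20.3, 21.7 and 21.8 CPM in controls and at 39.1, 30.5, 34.0, 35.7 and 25.5 CPM in cTKO libraries. Every cTKO library was above every control, with a log2 fold change of 0.59 (SE 0.10, 95% interval 0.38 to 0.81, 1.51 times the control level, FDR = 0.0352). The FDR rose above 0.05 in 8 of the 10 fits that left out 1 library, in all but those without cTKO library 3 or 5, and was at most 0.113. It was also above 0.05 with the library number as a block (FDR = 0.0598) and in one fit of all 20 libraries (FDR = 0.0875). In the hippocampus Crhbp differed by 0.29 (95% interval -0.017 to 0.59, FDR = 0.446). The receptor Crhr1 differed by -0.26 in both regions (FDR = 0.496 and 0.647).

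Tac1 encodes the precursor of substance P and neurokinin A, and Tac2 that of neurokinin B. They lie on chromosome 6 from 7554879 to 7565834 and on chromosome 10 from 127724478 to 127731768, both on the plus strand (GRCm38). In the neocortex Tac1 was at 18.5, 24.1, 20.2, 18.6 and 12.4 CPM in controls and at 26.9, 35.6, 21.8, 18.9 and 17.3 CPM in cTKO mice. The genotypes overlapped, with the highest values in cTKO libraries 1 and 2 (log2 fold change 0.37, SE 0.19, 95% interval -0.044 to 0.79, FDR = 0.535; exact permutation p = 0.206). Tac1 is also abundant in neurons of the striatum, which adjoins the neocortex. The summed level of 10 striatal genes was 513.5 to 718.5 CPM in the neocortex of controls and 667.2, 975.0, 813.6, 567.6 and 694.4 CPM in cTKO neocortex, highest in the library with the most Tac1, and its part in the Tac1 values was not tested. In the hippocampus Tac1 was at 7.63 ± 1.0 and 7.40 ± 0.747 CPM (SD, n = 5 each; log2 fold change -0.043, 95% interval -0.30 to 0.21, FDR = 0.937).

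Tac2 was at 8.62 ± 0.742 CPM (SD, n = 5) in control and 8.28 ± 1.66 CPM (SD, n = 5) in cTKO neocortex (log2 fold change -0.047, 95% interval -0.35 to 0.25, FDR = 0.942). In control hippocampus it was at 4.05 ± 0.755 CPM (SD, n = 5) and in cTKO hippocampus at 4.10 ± 1.58 CPM (SD, n = 5), where the libraries ran from 2.34 to 6.56 CPM (log2 fold change 0.020, 95% interval -0.51 to 0.55, FDR = 0.989). Tacr1, the substance P receptor, differed by 0.42 in the neocortex (SE 0.13, unadjusted p = 0.00711, FDR = 0.272) and by 0.50 in the hippocampus (SE 0.22, unadjusted p = 0.0375, FDR = 0.380).

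Of 18 receptors of the member peptides, 15 were expressed highly enough to be tested, and 0 of them passed an FDR of 0.05 by edgeR's quasi-likelihood test in either region. An unadjusted p under 0.05 was found for 3 neocortical and 5 hippocampal values, beside 10.4% and 12% of all genes, and the median log2 fold changes were 0.13 and -0.073, beside 0.0090 and 0.0049 over all genes. Sstr5, Cckar and Tacr2 were not tested. Of 10 partners of the CRH and melanocortin systems 2 were tested, Crhbp and Mrap2.

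**Figure D4:**
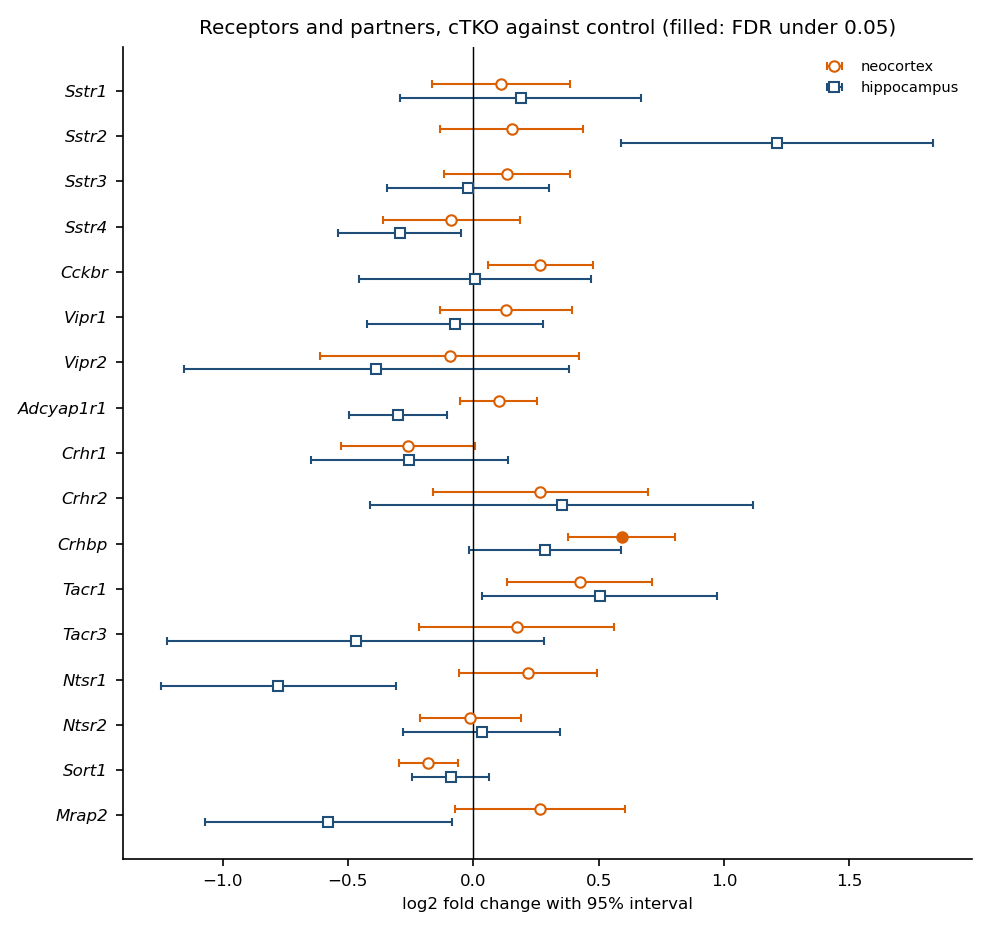
Log2 fold change of cTKO against control with 95% intervals for the 15 receptors tested and for Crhbp and Mrap2, in the neocortex (circles) and the hippocampus (squares); filled symbols have an FDR under 0.05. Crhbp in the neocortex is the only filled symbol, Sstr2 in the hippocampus lies at 1.21, and Ntsr1 in the hippocampus at -0.78.

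The machinery that cuts and packs peptides was read from 17 genes, all of them tested. In the neocortex 0 were called, beside 0.188% of all genes, and 6 had an unadjusted p under 0.05, beside 10.4%. The hippocampus had 6 such genes, beside 12% of all genes, and 1 call, beside 0.489%, which was Pcsk5, a proprotein convertase. Pcsk5 was at 15.1, 18.1, 17.3, 15.4 and 17.1 CPM in control hippocampus and at 27.7, 27.7, 32.0, 21.9 and 21.3 CPM in cTKO hippocampus. All cTKO libraries were above the controls (log2 fold change 0.65, SE 0.11, 95% interval 0.40 to 0.90, FDR = 0.0257), and the FDR lay above 0.05 in the 7 fits that left out a control library or cTKO library 1 or 2, at most 0.0994. The median log2 fold changes of the 17 genes were 0.074 and 0.12.

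Among 38 other neuropeptide genes, 15 were tested in neocortex and 13 in hippocampus. Neocortical calls numbered 0, and 7 genes had an unadjusted p under 0.05, beside 0.188% and 10.4% of all genes. The shares of all genes were 0.489% and 12% in the other region. There was 1 call among the hippocampal genes, and 6 had an unadjusted p under 0.05. The call was a rise of Penk, which encodes the enkephalin precursor, from 33.8 ± 3.65 to 182.3 ± 62.0 CPM (SD, n = 5 each; FDR = 4.59e-05). Npy, the neuropeptide Y precursor, averaged 74.0 CPM in control and 177.6 CPM in cTKO hippocampus, and 126.7 and 187.2 CPM in the neocortex. It was called in neither region here, whereas the paper lists it among the genes raised in both. Penk was also called in the test of a difference between the regions (log2 1.92, FDR = 0.00444). Pdyn, the dynorphin precursor, was at 12.9 ± 2.40 CPM in control and 6.69 ± 2.65 CPM in cTKO hippocampus (SD, n = 5 each), a log2 fold change of -0.95 with no overlap that did not pass the test (FDR = 0.122).

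Marker genes of the cells that make these peptides were compared as lists. Of 8 genes taken for the Sst class of interneurons 7 were tested, 0 were called in either region, and the median log2 fold change in the hippocampus was -0.074. The list is not limited to that class, since it holds Pvalb, a gene of another class. The summed level of the 8, led by Nos1, was 404.3 to 531.7 CPM in control and 353.1 to 513.9 CPM in cTKO hippocampus. It does not measure Sst cells alone. Of 8 genes of Vip and other caudally derived interneurons, 0 were called in the neocortex and 1, Lamp5, fell in the hippocampus, from 39.6 ± 3.81 to 27.7 ± 2.72 CPM (SD, n = 5 each; FDR = 0.0204). Lamp5, which marks neurogliaform interneurons and is also made by excitatory neurons, differed by -0.47 in the neocortex (FDR = 0.187). This list too is therefore not limited to interneurons, and it does not measure Vip cells alone. Of 8 genes of all GABAergic neurons and 6 of excitatory neurons, 0 were called in either region. Of the 8 GABAergic and 6 excitatory genes, 2 and 2 had an unadjusted p under 0.05 in neocortex, and 2 and 3 in hippocampus, beside 10.4% and 12% of all genes. Of 9 genes of hippocampal subfields, 7 were tested in the neocortex, where 1 was called, Wfs1, higher in cTKO mice (log2 fold change 0.94, FDR = 0.0307), and 3 had an unadjusted p under 0.05. All 9 were tested in the hippocampus, where 0 were called and 5 had an unadjusted p under 0.05, with log2 fold changes from -1.39 to 0.77. Among these, named after their values were seen, the dentate granule cell genes Tdo2, Dsp and C1ql2 differed by -1.39, -0.83 and 0.77 (FDR = 0.165, 0.0861 and 0.0861), Tdo2 without overlap, and their part in the values of Nts and Mc4r was not tested. Drd1, from the striatal list, rose in cTKO hippocampus (log2 fold change 1.92, FDR = 3.31e-05) and in the test between regions (log2 1.54, FDR = 0.00444).

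The summed levels of genes of tissue that adjoins the hippocampus varied between libraries, and their ranges overlapped between the genotypes. The summed level of 6 choroid plexus genes, led by Ttr, was 76.2 to 2710.0 CPM in control hippocampus and 112.1 to 599.5 CPM in cTKO hippocampus. All 6 genes were lower in cTKO hippocampus, with log2 fold changes from -1.97 to -0.72 and a median of -1.65, and 3 had an unadjusted p under 0.05 but 0 an FDR under 0.05. Of 5 thalamic genes 2 had an unadjusted p under 0.05 and 0 were called, and their summed level was 49.6 to 52.1 CPM in control hippocampus and 42.6, 37.0, 43.4, 54.6 and 42.9 CPM in cTKO hippocampus, where 4 of the 5 libraries lay below the controls. Of 4 genes of astrocytes, a cell type of the hippocampus itself, 0 were called there and 1 had an unadjusted p under 0.05. The share of all genes with such a p was 12%. The log2 fold changes of the 4 ran from -0.20 to 1.58, with a median of 0.22. Gfap, 1 of the 4, was at 426.2 ± 80.8 CPM in control and 1274 ± 1096 CPM in cTKO hippocampus (SD, n = 5 each). The part of the choroid plexus, thalamic and astrocyte genes in the values of the members was not tested. Library 3 of control hippocampus had the most choroid plexus RNA. Without it the log2 fold change was -0.81 for Nts (FDR = 0.0474) and -1.06 for Mc4r (FDR = 0.0340).

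The regions differed more than the genotypes. In controls 7 of 10 members differed between hippocampus and neocortex, beside 59.1% of all 13832 genes tested: Nts and Mc4r were higher in the hippocampus (29.8% of all genes were higher) and Vip, Crh, Tac1, Tac2 and Adcyap1 were lower (29.2% lower). The same 7 members and Cck, 8 of 10 in all, differed in cTKO mice, beside 41.3% of all 13846 genes (20.2% higher, 21.1% lower). The libraries of the regions did not overlap for 7 members in controls and for 6 in cTKO mice, beside 44.2% and 28.8% of all genes. Sst and Cort passed the threshold in neither genotype.

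**Figure D5:**
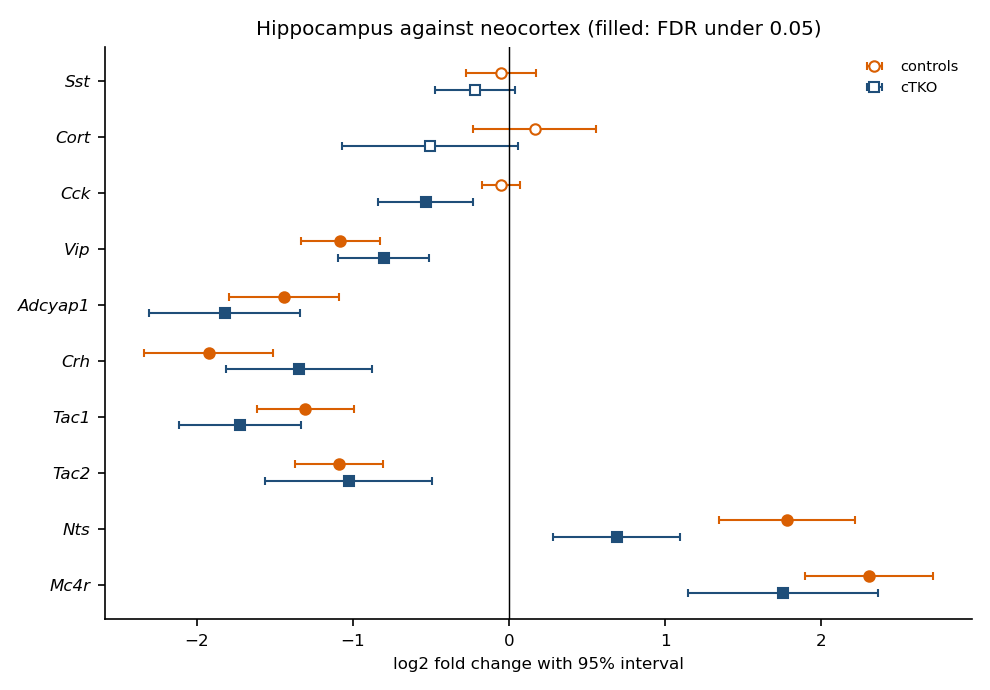
Log2 fold change of hippocampus against neocortex for the 10 genes with 95% intervals, in controls (circles) and cTKO mice (squares); filled symbols have an FDR under 0.05. Nts and Mc4r lie to the right of 0 and Vip, Crh, Tac1, Tac2 and Adcyap1 to the left in both genotypes.

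Mc4r was 4.94 times and Nts 3.44 times higher in control hippocampus than in control neocortex (log2 fold change 2.31 and 1.78, SE 0.19 and 0.20, FDR = 8.42e-08 and 2.70e-06). In cTKO mice the ratios were 3.38 and 1.61 (log2 fold change 1.76 and 0.69, SE 0.28 and 0.19, FDR = 0.000323 and 0.0105). For both genes every hippocampal library was above every neocortical library of the same genotype. The order of the groups was control hippocampus, cTKO hippocampus and then the neocortical groups, and the neocortical groups overlapped each other. Library 2 of control neocortex also reached into the range of cTKO hippocampus for Nts, and for Mc4r no neocortical library did.

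Crh had the largest fall from neocortex to hippocampus in controls (log2 fold change -1.92, SE 0.19, FDR = 6.76e-07), followed by Adcyap1 (-1.44, SE 0.17, FDR = 2.70e-06), Tac1 (-1.31, SE 0.15, FDR = 1.95e-06), Tac2 (-1.09, SE 0.13, FDR = 4.36e-06) and Vip (-1.08, SE 0.12, FDR = 1.61e-06). In cTKO mice the log2 fold changes were -1.35 for Crh, -1.82 for Adcyap1, -1.72 for Tac1, -1.03 for Tac2 and -0.80 for Vip, with FDR from 1.20e-05 to 0.00520. For Tac2 in cTKO mice the libraries of the regions overlapped; for the others they did not. Cck differed between the regions by -0.052 in controls (95% interval -0.17 to 0.070, FDR = 0.451) and by -0.53 in cTKO mice (95% interval -0.84 to -0.23, FDR = 0.00908), where the libraries overlapped. Sst differed by -0.050 in controls (95% interval -0.28 to 0.18, FDR = 0.708) and by -0.22 in cTKO mice (FDR = 0.168). For Cort the values were 0.16 (FDR = 0.463) and -0.51 (FDR = 0.141). The striatal genes were also higher in the neocortex, with a summed level in controls of 513.5 to 718.5 CPM against 189.3 to 215.0 CPM, and their part in the Tac1 difference was not tested.

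The members also varied within groups. After the mean of each group was taken off the log2 CPM, the 45 pairs of members had a median Pearson r of 0.262 over the 20 libraries, 10 pairs were above 0.5 and 0 were below -0.5. Sst and Cort had an r of 0.840 (0.765 without the 2 libraries with embryonic genes). For Cck and Cort it was 0.804 (0.68 without them) and for Sst and Cck 0.702 (0.57 without them). Nts and Mc4r, which both fell in cTKO hippocampus, had an r of -0.365. These values are descriptive, since libraries share mice, regions and depth.

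By the same measure, the gene most like each member among 14191 others was named with its r, and again over 18 libraries without those that held embryonic genes. It was Ly6h for Sst (0.880 and 0.860), Gap43 for Cort (0.866 and 0.757) and the deleted gene Aplp1 for Cck (0.904 and 0.801), followed by Ptprn, a dense core vesicle protein, at 0.902 and 0.776. Tac1 was most like Slc5a7 (0.845 and 0.872) and Slc10a4 (0.802 and 0.877), which encode the choline transporter and a vesicle protein of cholinergic neurons. For Tac2 it was Cxcl14 (0.864 and 0.798) and for Mc4r Clcn7 (0.811 and 0.810), while the values were lower for Adcyap1 with Rusc1 (0.799 and 0.766), Crh with Hey2 (0.790 and 0.760), Nts with Sumo2 (0.767 and 0.761) and Vip with Gps1 (0.736 and 0.644). These are the highest over 20 libraries. Over 18 libraries Ly6h and Sumo2 still ranked 1, Slc5a7 2 and Slc10a4 1, while Aplp1 ranked 20 and Ptprn 33 for Cck, Gps1 61 for Vip, Cxcl14 15 for Tac2, Gap43 6 for Cort, Rusc1 4 for Adcyap1, Hey2 4 for Crh and Clcn7 3 for Mc4r. Each is the highest of many values and is large in part for that reason.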

How the data were processed

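RNA-seq of 20 libraries (5 for each of control and cTKO neocortex and hippocampus) was used. The authors made polyadenylated RNA libraries, aligned single-end reads to mm10 with STAR 2.5.4a, counted them on genes with HTSeq (version, strand setting and annotation not given in the sources used here) and deposited raw counts per gene. It is therefore not known whether reads of a gene and of an antisense partner were counted apart, and no annotated gene overlapped a member. Of all pairs of libraries 0 were identical.

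The counts were tested with edgeR 4.0.16 in R 4.3.3 (limma 3.58.1): TMM scaling, a filter that kept genes above 1 CPM in 5 or more libraries of the fit, the quasi-likelihood test, and Benjamini-Hochberg adjustment over all genes tested, with a threshold of 0.05. The genotypes were compared within a region, the regions within a genotype, and their interaction over all 20 libraries. Exact permutation tests of log2 CPM were run for single genes (prior count 2, two-sided, 252 splits). CPM are relative to library totals scaled by TMM, and the smallest level to unscaled totals. An SE is the log2 fold change divided by the root of its F statistic. Alternatives were the exact and likelihood ratio tests of edgeR, DESeq2 1.42.0 and its size factors, 2 other filters (filterByExpr, none), a joint fit, a block for the library number, Xist as a covariate, a prior count of 0.5, and leaving out libraries. Procedures were tested on simulated data.

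Named genes were the members, called genes of fixed lists, receptors and partners of called members, and up to 2 genes most like each member. Other receptors, the dentate genes and Pdyn, Npy, Hbb-y, Gfap, Camk2a, Pomc, Pvalb and Nos1 were named after their values were seen. Members and lists were chosen with earlier results of these data known. Positions and exon lengths are from GENCODE M21 and promoter windows from RefSeq, where 8 of 10 members had one. Libraries with the same number deviated together across the regions in controls (r from 0.130 to 0.335, 5 of 5 pairs above 0.1), so numbers pair those libraries; with the block the 7 calls of that comparison were unchanged. Figures were drawn with matplotlib 3.10.9.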

Additional observations from a re-analysis of the deposited data

Results flagged for a closer look

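Of 40 groups of 5 libraries (10 members in 4 groups), 3 held a library far from the other 4 by Dixon's criterion, and chance gives about 1 in 20. For Nts, library 2 of control neocortex was at 4.78 CPM, beside 1.65 to 2.38 CPM in the other controls, and library 1 of cTKO hippocampus was at 6.81 CPM, beside 4.45 to 4.96 CPM. For Mc4r, library 2 of cTKO hippocampus was at 8.15 CPM, beside 4.46 to 5.37 CPM. The gap to the nearest library was 0.766, 0.785 and 0.752 of the range of the group, above the limit of 0.71. Leaving out the library flagged in the hippocampus left both genes called, with log2 fold changes of -0.98 for Nts and -1.17 for Mc4r. Each was the cTKO library nearest the controls, so leaving it out enlarges the fall and does not test the call. Over all 10 fits that left out 1 hippocampal library, Nts was called in 8 and Mc4r in 6.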

How the results depend on the processing

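In the neocortex 26 genes were called, and the number was 163 with the exact test of edgeR, 167 with its likelihood ratio test, 221 with DESeq2, 42 without a filter, 12 with the replicate block and 133 without the libraries with embryonic genes; with 1 library left out it was 7 to 133, and 0 members were called each time. In the hippocampus 67 genes were called, and the number was 257, 259 and 331 with the 3 other tests, 189 in one fit of 20 libraries and 15 to 149 with 1 library left out. The members called there were 2, 3 (with Cort) under the exact and likelihood ratio tests, one fit of 20 libraries and the replicate block, 4 with DESeq2 (Nts, Mc4r, Cort and Cck) and 0 to 2 with 1 library left out. Nts and Mc4r were called in all 10 alternatives other than leaving out 1 library in turn (FDR 2.20e-06 to 0.0405 and 3.79e-06 to 0.0358). Cort was called in 5 of the 10: the exact (FDR 0.00255) and likelihood ratio tests (0.00249), DESeq2 (0.00139), one fit of 20 libraries (0.0208) and the replicate block (0.0381). It was called in 0 of 10 fits with 1 library left out (FDR 0.0750 to 0.191). Crhbp had an FDR of 0.0598 with the replicate block and 0.0875 in one fit of 20 libraries. For the interaction 8 genes were called, 26 with the likelihood ratio test, 26 with DESeq2, 18 with the replicate block and 5 to 20 with 1 library left out; 0 to 1 members were called then, Nts being the one.

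The members called between regions were 7 in controls and 8 in cTKO mice in every fit with 1 library left out, where 7618 to 8026 and 4848 to 5650 genes were called. Exact permutation tests of single members in the neocortex gave a p under 0.05 for 1 member, and for 0 to 1 with 1 library left out; in the hippocampus for 4, and 4 to 5; between regions for 7 (7 to 7) in controls and 8 (7 to 8) in cTKO mice.

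Values near 0 changed sign. Without the libraries with embryonic genes the log2 fold change was 0.0073 for Tac2 in the neocortex and 0.048 for Sst, 0.018 for Vip and 0.022 for Adcyap1 in the hippocampus, and with the replicate block it was -0.038 for Tac2 in the hippocampus. With 1 library left out the ranges in the hippocampus were -0.11 to 0.048 for Sst, -0.15 to 0.032 for Vip, -0.11 to 0.023 for Tac1, -0.22 to 0.16 for Tac2 and -0.32 to 0.071 for Adcyap1; they were -0.11 to 0.040 for Tac2 in the neocortex, -0.12 to 0.036 for Sst between regions in controls and -0.17 to 0.21 for Tac2 in the interaction. The cause of these changes was not tested. Except in the control regions, library numbers did not pair all of the libraries by the criterion used (r between -0.137 and 0.396). Across the regions of cTKO mice 3 of 5 pairs were above 0.1, each with its highest r for its own number. Library 5 of cTKO neocortex had its highest r, 0.575, with a hippocampal library of another number. Whether the libraries with embryonic genes came from the same mouse was not tested. At these depths Crh, Nts and Mc4r in their lower region rest on few reads, which widens their intervals.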
